A study of Mus musculus with 6 samples.

Results

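The integrated stress response genes described here are 10 genes of the ATF4-CHOP branch, namely Atf3, Atf4, Atf5, Ddit3, Trib3, Asns, Ddit4, Sesn2, Stc2 and Eif4ebp1. They were chosen by name, with earlier results of these data known, so counts over them are descriptions and not tests. Every probe set whose only gene symbol is a member was read, which gave 18 of the 22626 probe sets fitted and 10 of 12393 genes. Their RNA was compared between 3 control and 3 YY1aKO samples of mouse adipose tissue, each on its own Affymetrix array. All mice were 8 weeks old, of mixed C57BL6 and 129 background, and had been kept at 4 °C for 4 days, so no group was without cold. Controls were YY1flox/flox mice. YY1aKO mice were YY1flox/flox and carried Adiponectin Cre, whose promoter is active in adipocytes, so other cells of the tissue keep Yy1. The Cre transgene was present in the YY1aKO group alone, and its effect and that of losing Yy1 cannot be told apart. The labels disagree on the depot, naming epididymal or visceral fat in some fields and subcutaneous fat in others. The series title calls the deficiency specific to brown fat, whereas the Adiponectin promoter of the genotype label is active in adipocytes of brown and white fat. The labels also do not say whether the samples of a group came from separate animals. The p-values therefore measure the spread between these samples, which may be technical.

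In the integrated stress response, kinases that sense amino acid shortage, misfolded protein in the endoplasmic reticulum, haem shortage or viral RNA phosphorylate the translation factor eIF2α. This slows most protein synthesis while the mRNA of the transcription factor ATF4 is translated more. ATF4 then raises the transcription of genes for amino acid supply and of further factors, among them CHOP (encoded by Ddit3), and both can drive Trib3, whose product restrains ATF4 and the kinase AKT. Because ATF4 and ATF5 are controlled largely at translation, an array of mRNA does not measure their activity.

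ATF4 acts with C/EBP proteins at composite sites, C/EBP-ATF response elements, whose core was searched here as TGATGNAA on both strands. RefSeq promoter windows of the GRCm38.p6 assembly, from 250 bases before the start to 50 bases from the start on, were matched by symbol for 9 members, all but Eif4ebp1. The core was found in 3 of these 9 genes, Atf3, Trib3 and Asns, against 4.51% of all 27025 genes with a window. Counted over windows, it was present in 3.97% of all 32851. These 3 windows are shown 5′ to 3′ on the gene's own strand, because these members carry the letters of the element and differ from each other in their change. Capitals mark the match. That of Atf3 (chr1:191183284-191183583, minus strand) lies 110 bases before the start and that of Asns (chr6:7693160-7693459, minus strand) 23 bases before it, while in Trib3 (chr2:152344011-152344310, minus strand) its first base is base 15 of the transcript. In Atf3 and Trib3 the core reads on the opposite strand, so the capitals show its reverse complement.
Atf3: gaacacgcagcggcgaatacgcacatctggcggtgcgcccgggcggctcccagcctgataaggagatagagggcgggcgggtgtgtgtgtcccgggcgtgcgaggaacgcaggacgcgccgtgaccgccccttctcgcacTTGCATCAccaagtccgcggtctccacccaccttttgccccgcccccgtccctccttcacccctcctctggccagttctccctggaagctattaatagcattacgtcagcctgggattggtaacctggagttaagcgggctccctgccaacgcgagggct
Trib3: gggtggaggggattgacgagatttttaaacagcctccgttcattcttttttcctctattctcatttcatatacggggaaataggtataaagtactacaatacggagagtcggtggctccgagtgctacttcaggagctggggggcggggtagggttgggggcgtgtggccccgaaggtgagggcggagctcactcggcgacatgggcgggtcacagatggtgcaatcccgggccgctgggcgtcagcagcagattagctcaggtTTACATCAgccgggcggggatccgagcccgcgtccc
Asns: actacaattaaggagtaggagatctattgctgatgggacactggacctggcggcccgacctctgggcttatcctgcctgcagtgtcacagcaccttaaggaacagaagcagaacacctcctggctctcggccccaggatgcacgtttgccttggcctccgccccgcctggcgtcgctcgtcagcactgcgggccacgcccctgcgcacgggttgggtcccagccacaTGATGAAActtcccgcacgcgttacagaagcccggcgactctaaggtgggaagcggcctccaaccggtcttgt
The cyclic AMP response element core TGACGTCA and the YY1 core AAGATGGC were found in 0 of the 9 members with a window. They were present in 2.03% and 3.19% of all genes with a window (1.79% and 2.75% of all windows). The C/EBP-ATF core begins with the same 3 letters as the cyclic AMP core and shares the run GATG with the YY1 core, and none contains another. A missing match says only that these exact letters are not in this window. All matches are descriptions of the sequence, and none was tested as a site.

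The targeted gene was lower in the YY1aKO arrays. Yy1 read 1785, 1846 and 1596 in controls 1, 2 and 3 and 373, 323 and 315 in YY1aKO 1, 2 and 3, which was 5.18-fold lower (limma adjusted p = 0.00342) by its brightest probe set of 4. The other 3 were 2.04-fold, 2.32-fold and 1.04-fold lower (adjusted p = 0.0152, 0.00531 and 0.673), the last being dim at 38.5 to 43.1 on every array. Control 2 stood apart from the other arrays. Its correlation with them over all probe sets was 0.93 to 0.96, while that between controls 1 and 3 was 0.99 and that among YY1aKO arrays 0.996. It also carried genes of epididymal epithelium, with Lcn8 at 28166 against 49.2 to 59.9 on the other 5 arrays, and Gpx5 at 21047 against 37.2 to 41.5 on 4 arrays and 638.6 in control 3. The 6 measured of 11 listed epididymal markers summed to 91876 in control 2, 859 in control 3 and 172 to 195 on the other arrays, so control 3, which stays in the comparison without control 2, carried some of this signal too. The summed intensity of 7 measured adipocyte markers of 8 listed was 102940, 64337 and 97440 in controls 1, 2 and 3 and 80216 to 87020 in YY1aKO. Adipocyte RNA was thus present in every sample, and controls 1 and 3 lay above every YY1aKO array. Skeletal muscle markers (6 of 6 measured) summed to 276 to 339 in the controls against 1299 to 2130.3 in YY1aKO. Acta1 carried nearly all of this, with 109.9 to 178 against 1107 to 1944.5. Myh4, Ckm, Tnnt3, Mylpf and Myh1 read 11.6 to 74.5 on every array and did not pass with 6 arrays. Of these, Myh4 and Mylpf had every YY1aKO array above every control, and only Mylpf passed without control 2 (0.43, limma adjusted p = 0.0221). Brown adipocyte markers (5 of 5) summed to 447 to 1351 in the controls against 1243 to 2578 in YY1aKO but did not move together. Ucp1 was 5.46-fold and Cidea 6.39-fold higher and Ppargc1a 7.65-fold lower (limma adjusted p = 0.0407, 0.0193 and 0.012), while Elovl3 and Cox8b did not pass (adjusted p = 0.135 and 0.863). Macrophage markers (8 of 8) summed to 14365, 7768 and 14915 in controls 1, 2 and 3 and 12057 to 14275 in YY1aKO. Endothelial markers (6 of 6) gave 3076, 1023 and 2583 against 1889.5 to 2336. Mesothelial markers (3 of 5 measured) gave 3968, 1415 and 3757 against 1934 to 3344. In each of these lists, too, controls 1 and 3 lay above every YY1aKO array. T cell markers (5 of 6) summed to 254 to 307.5 in the controls and 286 to 329 in YY1aKO. Single genes of these marker lists other than Lcn8 and Gpx5 are named after their values were seen. The part of these cell types in the results was not tested, and in bulk tissue fewer cells of a type and less RNA per cell cannot be told apart. The comparison of each member is therefore given with 6 arrays and again without control 2. Values of other genes are from 6 arrays unless stated.

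Among the 10 genes, Trib3, Atf3 and Atf5 were higher in YY1aKO, and Ddit3, Atf4 and Asns had higher means that did not pass with 6 arrays. Ddit4 and Stc2 lay lower in every YY1aKO array than in any control, and no probe set of either passed with 6 arrays. Read from each gene's probe set of highest mean, 3 of 10 members rose and 0 fell (5 higher and 2 lower at an unadjusted p under 0.05), with a median log2 difference of 0.58. Over all 12393 genes 6.92% rose and 4.04% fell (2096 higher and 1463 lower at an unadjusted p under 0.05), with a median of 0.04. Without control 2, 4 of 10 members rose, the fourth being Atf4 (not called there by the mean of its probe sets, at 0.49 and a limma adjusted p of 0.0714), and 1 fell, Stc2, against 14.6% and 11.5% of all genes. The median of the members was then 0.54, and that of all genes 0.01. Counted over probe sets, 4 of 18 rose and 0 fell, against 6.54% and 3.66% of all probe sets. At an unadjusted p under 0.05, 6 of the 18 were higher and 3 lower, against 6257 of all 22626 in either direction. Without control 2, 6 of 18 rose and 1 fell, against 13.9% and 10.6%. The groups did not overlap for 9 of the 18 member probe sets, against 37.0% of all probe sets. All but 1 of the 18, an Atf4 probe set, were among the brightest 60% of probe sets.

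**Figure D1:**
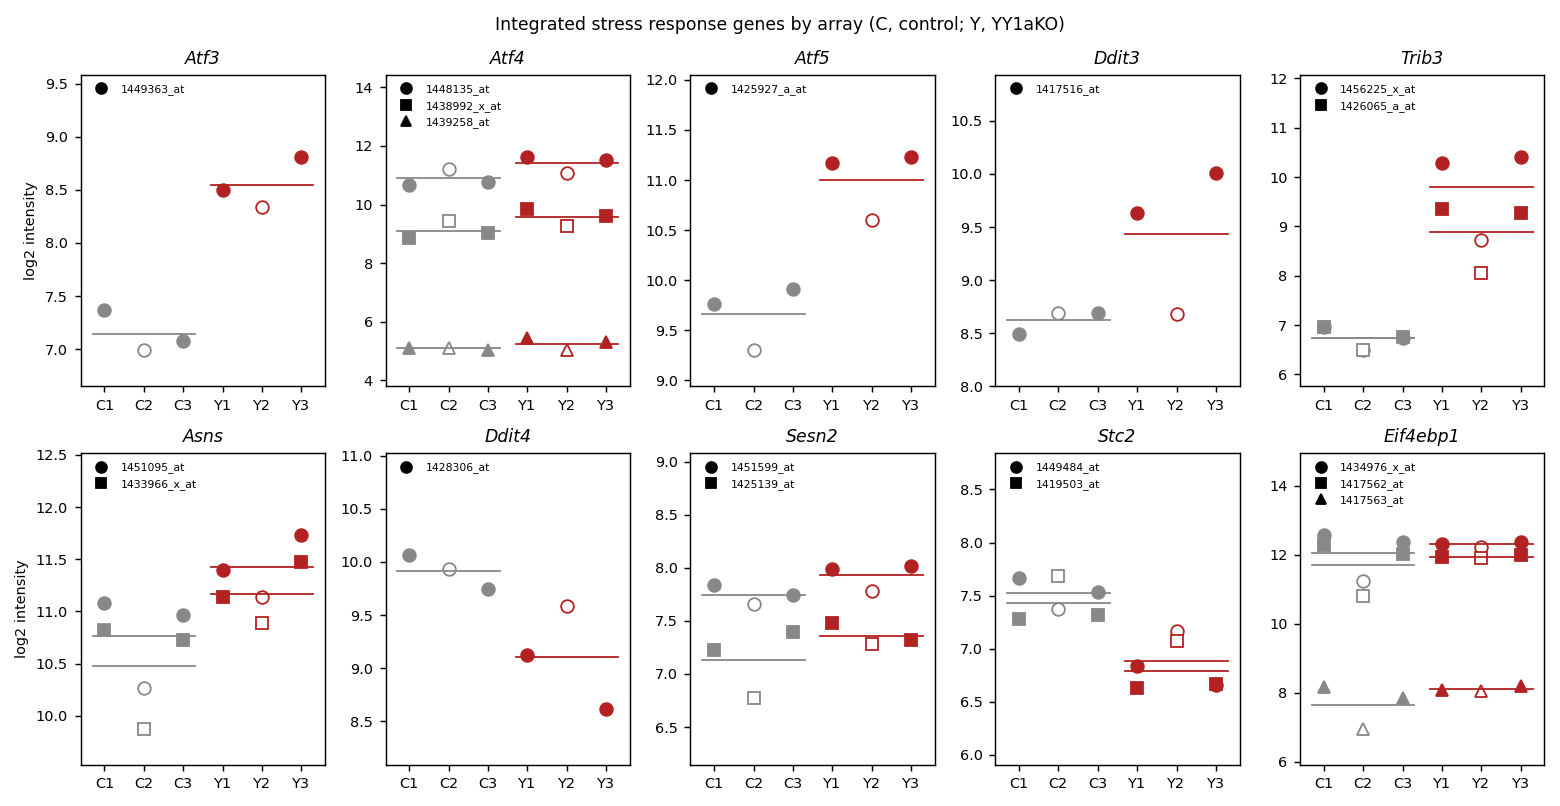
Log2 intensity on each array of every probe set of the 10 member genes, with the control arrays (C1 to C3, grey) at the left and the YY1aKO arrays (Y1 to Y3, red) at the right of each panel. Open symbols are control 2 and YY1aKO 2 and horizontal lines are group means of log2 values. Both Trib3 probe sets, Atf3 and Atf5 have every YY1aKO array above every control, and in each of the 18 probe sets YY1aKO 2 is the YY1aKO array furthest toward the control side.

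Trib3 encodes a pseudokinase that binds ATF4 and AKT and is a strongly inducible target of ATF4 and CHOP. It was read by 2 probe sets. The probe set 1456225_x_at read 124, 90.0 and 107.5 in the controls and 1248, 421 and 1354 in YY1aKO. The controls lay close together, YY1aKO 1 and 3 lay far above them and YY1aKO 2 lay between. The log2 difference was 3.07 ± 0.46 (SE), an 8.40-fold rise with a limma adjusted p of 0.0179 (95% interval 1.94 to 4.21), and 2.95 ± 0.50 without control 2 (adjusted p = 0.0103).

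The probe set 1426065_a_at read 125, 89.9 and 108 in the controls and 657, 265 and 615 in YY1aKO. Its arrays kept the same arrangement, with no overlap and with YY1aKO 2 the lowest of its group. Its log2 difference was 2.15 ± 0.37, a 4.45-fold rise (limma adjusted p = 0.0232), and 2.03 ± 0.39 without control 2 (adjusted p = 0.0153). The probe sets thus shared their direction and their call and differed in the size of the change. The suffixes mark probe sets that can also detect related sequence (_x_at) or several transcripts of a gene (_a_at), and what the 2 probe sets share or miss was not tested.

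Atf4, the central transcription factor of the pathway, had 3 probe sets, of which 1448135_at was brightest. It read 1644, 2387 and 1763 in the controls and 3139, 2145 and 2969.8 in YY1aKO. Control 2 was the highest control and YY1aKO 2 the lowest YY1aKO array, and these were the values that crossed. The log2 difference was 0.51 ± 0.21 (limma adjusted p = 0.18) with 6 arrays and 0.67 ± 0.18, or 1.59-fold, without control 2 (adjusted p = 0.0378).

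The second Atf4 probe set, 1438992_x_at, read 469.6, 693 and 524 in the controls and 911, 623 and 778 in YY1aKO. Its groups overlapped through the same arrays. It gave 0.46 ± 0.20 (limma adjusted p = 0.209) and, without control 2, 0.62 ± 0.17 (adjusted p = 0.0433). The third, 1439258_at, was dim, at 33.0 to 34.8 in the controls against 32.7 to 43.4 in YY1aKO, and did not pass in either comparison (adjusted p = 0.455 and 0.399).

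Atf5 encodes a paralogue of ATF4 that is also translated under stress. Its probe set 1425927_a_at read 872, 631 and 964 in the controls and 2297.5, 1554 and 2399 in YY1aKO. The groups were well separated, and the lowest array of each was its second replicate. The log2 difference was 1.34 ± 0.23, a 2.53-fold rise (limma adjusted p = 0.0242), and 1.16 ± 0.20 without control 2 (adjusted p = 0.0108).

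Atf3 encodes a stress-induced factor of the same family that is a target of ATF4. Its probe set 1449363_at read 165, 127 and 135 in the controls and 363, 324 and 449 in YY1aKO. The groups did not overlap, and the YY1aKO arrays were closer to each other than for Trib3. The log2 difference was 1.41 ± 0.16, a 2.65-fold rise (limma adjusted p = 0.011), and 1.33 ± 0.16 without control 2 (adjusted p = 0.00419).

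Ddit3 encodes CHOP, the factor of the prolonged response that is linked to cell death. Its probe set 1417516_at read 360.2, 414 and 414 in the controls and 791, 411 and 1027 in YY1aKO. YY1aKO 1 and 3 were far above every control, while YY1aKO 2 lay within the control range. The log2 difference was 0.81 ± 0.33 (limma adjusted p = 0.183) with 6 arrays and 0.85 ± 0.37 (adjusted p = 0.15) without control 2. Without YY1aKO 2 alone it was 1.19 (adjusted p = 0.0678), and of the arrays and pairs left out it passed only when control 2 and YY1aKO 2 were both out, at 1.22 (adjusted p = 0.0186).

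Asns encodes asparagine synthetase, a target of ATF4 in amino acid shortage. Its probe set 1451095_at read 2159, 1232 and 1997 in the controls and 2697, 2257 and 3391.5 in YY1aKO, and 1433966_x_at read 1806, 941 and 1699 against 2257, 1894 and 2844. In both, every YY1aKO array lay above every control, and control 2 was far below the other controls. The log2 differences were 0.65 ± 0.26 and 0.69 ± 0.29 (limma adjusted p = 0.172 and 0.192). They were 0.40 ± 0.17 and 0.39 ± 0.17 without control 2 (adjusted p = 0.15 and 0.156), so neither passed.

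Ddit4, also called REDD1, restrains the growth kinase complex TORC1 and is induced by ATF4, low oxygen and glucocorticoids. Its probe set 1428306_at read 1072, 976 and 860.2 in the controls and 558, 769 and 392 in YY1aKO. No YY1aKO array reached the controls, and YY1aKO 2 was the highest of its group. The log2 difference was -0.81 ± 0.25 (limma adjusted p = 0.101) and, without control 2, -0.80 ± 0.28 (adjusted p = 0.087). With control 2 and YY1aKO 2 both left out it was -1.04 (adjusted p = 0.041).

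Stc2 encodes stanniocalcin 2, a secreted glycoprotein that ATF4 induces in stressed cells. Its probe set 1449484_at read 204, 166 and 185 in the controls and 115, 143 and 101 in YY1aKO, and 1419503_at read 156, 205 and 160.0 against 99.2, 135 and 101. In both the groups did not overlap, and YY1aKO 2 was again the array of its group nearest to the controls. The log2 differences were -0.64 ± 0.16 and -0.64 ± 0.17 (limma adjusted p = 0.0583 and 0.0716). Without control 2 the first passed at -0.71 ± 0.16 (adjusted p = 0.024), and the second had -0.51 ± 0.15 (adjusted p = 0.0547). The mean of both probe sets passed, at -0.64 with 6 arrays and -0.61 without control 2 (limma adjusted p = 0.0412 and 0.0339).

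Sesn2 encodes sestrin 2, a leucine sensor that restrains TORC1. Its probe set 1451599_at read 228, 202 and 215 in the controls and 254, 220.1 and 258 in YY1aKO, and 1425139_at read 149, 109.6 and 168 against 179, 156 and 159. Both overlapped between the groups. Neither passed, with log2 differences of 0.18 ± 0.10 (95% interval -0.07 to 0.44) and 0.23 ± 0.18, limma adjusted p = 0.317 and 0.454, and the second fell to 0.05 without control 2 and was -0.005 with array weights.

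Eif4ebp1 encodes the translation repressor that TORC1 inactivates. Its brightest probe set, 1434976_x_at, read 6059, 2443 and 5317 in the controls and 5154, 4799 and 5361 in YY1aKO, so control 2 was at less than any other array and the rest lay close together. The log2 difference of 0.25 ± 0.34 with 6 arrays (limma adjusted p = 0.685) turned to -0.15 ± 0.10 without control 2 (adjusted p = 0.32), and that of 1417562_at from 0.25 ± 0.38 to -0.20 ± 0.10 (adjusted p = 0.717 and 0.224). The third probe set, 1417563_at, kept its sign, at 0.45 and 0.10, with neither value passing (limma adjusted p = 0.404 and 0.613).

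**Figure D2:**
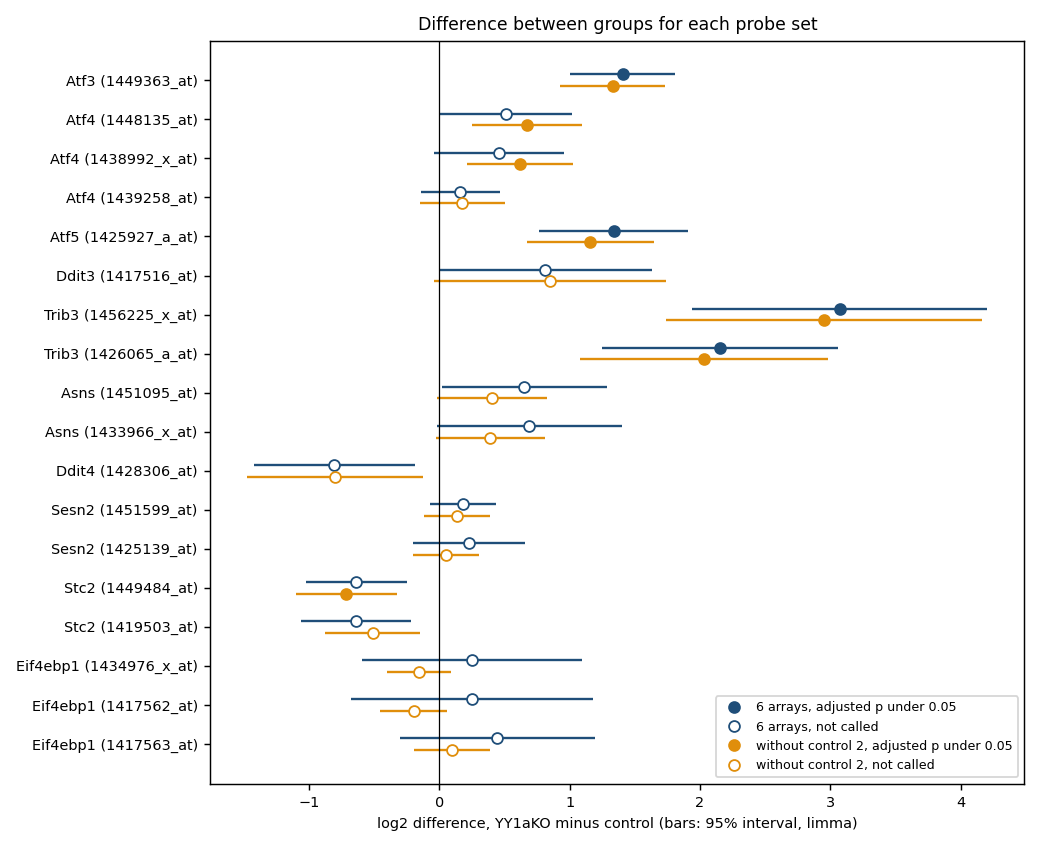
Log2 difference, YY1aKO minus control, of the 18 member probe sets with its 95% interval, fitted with 6 arrays and without control 2. Filled symbols passed the threshold of 0.05. The Trib3 probe sets lie furthest to the right, at 3.07 and 2.15 with 6 arrays, and those of Ddit4 and Stc2 lie to the left of 0.

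The difference from the controls varied among the YY1aKO arrays in the same order for most members. With 6 arrays YY1aKO 2 was the YY1aKO array nearest to the control side in 18 of 18 member probe sets, being the lowest in the 15 with a higher YY1aKO mean and the highest in the 3 with a lower mean. Over all 22626 probe sets the same array was nearest in 29.0%, and over those whose groups did not overlap in 25.8%. Without control 2 it was nearest in 16 of 18, all but 2 of Eif4ebp1, against 29.8% of all probe sets. On the log2 scale YY1aKO 2 lay 1.63 and 1.26 under the mean of YY1aKO 1 and 3 for the Trib3 probe sets, 1.13 under it for Ddit3 and 0.72 above it for Ddit4, while for Atf3 it was 0.32 under. These probe sets share their arrays and several share a gene, so they are not independent, and no test was made of the pattern.

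The Yy1 probe sets did not set YY1aKO 2 apart in 1 direction. It read 323 against 373 and 315 in YY1aKO 1 and 3 by 1422569_at, 79.5 against 86.7 and 106 by 1422570_at, and 386 against 380.4 and 349 by 1435824_at. Acta1 read 1107 in YY1aKO 2 against 1944.5 and 1942, and the other 5 muscle markers stayed at 12.9 to 74.5 on these arrays. The log2 ratio of the 3′ to the 5′ Actb control probe sets, a measure of RNA quality, was 1.01 in YY1aKO 2 against 1.13 and 1.22, and that of Gapdh 0.11 against 0.19 and 0.17. In controls 1, 2 and 3 the Actb ratio was 1.26, 1.255 and 1.18 and the Gapdh ratio 0.16, 0.14 and 0.11. YY1aKO 2 thus had the lowest Actb ratio of all arrays. The part of the muscle markers or of RNA quality in the pattern was not tested.

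The calls for the members changed when single arrays were left out. With 6 arrays, 1456225_x_at of Trib3 kept its call without control 1, control 2 or YY1aKO 2 and lost it without control 3, YY1aKO 1 or YY1aKO 3 (limma adjusted p = 0.0705, 0.074 and 0.085). The call of 1426065_a_at was kept and lost on the same arrays (adjusted p = 0.0848, 0.0856 and 0.106 where lost). Atf3 lost it without control 3 (0.0555) and without YY1aKO 1, 2 or 3 (adjusted p = 0.059, 0.066 and 0.0675), as did Atf5 (adjusted p = 0.0655 without control 3 and 0.0961, 0.0681 and 0.11 without YY1aKO 1, 2 or 3). Over the whole table the 2306 probe sets called from 6 arrays became 259 when control 3 was dropped and 127, 18 and 28 when YY1aKO 1, 2 or 3 was, against 5532 when control 2 was. Once control 2 was out, 1456225_x_at, Atf3 and Atf5 passed with any further array left out, and 1426065_a_at missed without control 3 (adjusted p = 0.0545) or YY1aKO 3 (0.0539). The Atf4 call of 1448135_at and the Stc2 call, which had been made without control 2, held of these settings only when the further array was YY1aKO 2.

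The wider pathway was read from lists of related genes, each gene from its probe set of highest mean. Like the members, the lists were chosen with earlier results of these data known. Over all 12393 genes 6.92% rose and 4.04% fell with 6 arrays, and 14.6% and 11.5% without control 2. At an unadjusted p under 0.05 the counts over all genes were 2096 higher and 1463 lower, and 2602 and 2259 without control 2. Upstream of ATF4, 17 of 20 listed eIF2α kinases, their regulators, phosphatase subunits and the translation factors they act on were measured. Of these 2 rose and 0 fell (7 higher and 1 lower at an unadjusted p under 0.05), with a median log2 difference of 0.26. Eif2b5, a subunit of the exchange factor that phosphorylated eIF2α blocks, read 578, 645 and 619.8 in the controls against 901, 1005 and 1003 in YY1aKO (0.66 ± 0.09, limma adjusted p = 0.0155). Eif2s2, the β subunit of eIF2, had 0.67 ± 0.11 (adjusted p = 0.0213), but 0.58 without passing as the mean of its probe sets (adjusted p = 0.0848). Without control 2, 6 rose and 0 fell (9 higher and 1 lower at an unadjusted p under 0.05).

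The partners with which ATF4 and CHOP dimerise, such as the C/EBP proteins, gave 0 calls in 13 with 6 arrays (4 higher and 0 lower at an unadjusted p under 0.05). Without control 2, 2 rose and 1 fell (15.4% and 7.69%, against 14.6% and 11.5% of all genes). Cebpg, the usual C/EBP partner of ATF4, then had 0.49 ± 0.09 (limma adjusted p = 0.0142, against 0.0836 with 6 arrays), its 3 YY1aKO values of 1464 to 1492 lying above controls of 653 to 1125. The mean of its probe sets did not pass (0.34, adjusted p = 0.121). Cebpd, an early factor of adipocyte differentiation, had -1.30 ± 0.13 (adjusted p = 0.0026), or -0.75 as the mean of its probe sets, against -0.66 and 0.475 with control 2, which read 286 where controls 1 and 3 read 1193 and 952.

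Of the paralogues of the members, 11 of 13 were measured, 1 rose and 1 fell (9.09% each, against 6.92% and 4.04% of all genes). At an unadjusted p under 0.05, 3 were higher and 3 lower. The median was -0.42, with 3 differences above 0 and 8 below. Atf7, a relative of ATF2, rose by 0.55 (limma adjusted p = 0.0156), but by 0.21 and without passing when all its probe sets were averaged (adjusted p = 0.202). Trib2, the relative of Trib3, had -0.58 (adjusted p = 0.0409), -0.31 as the mean of its probe sets (adjusted p = 0.0946) and -0.05 without suffixed probe sets (adjusted p = 0.819), so the call rested on a suffixed probe set. That probe set read 257, 268 and 301 in the controls against 166, 211 and 179 in YY1aKO, below every control where Trib3 lay above. Without control 2, 2 paralogues rose and 2 fell (18.2% each, against 14.6% and 11.5% of all genes), with a median of -0.16.

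Downstream, the aminoacyl-tRNA synthetases that ATF4 induces made up the list with the most calls. Of 11 measured of 12 listed, 9 rose and 0 fell (10 higher and 0 lower at an unadjusted p under 0.05), with a median of 0.70, and all 11 rose without control 2, with a median of 0.80. Aars, which charges alanine, read 716, 756 and 601 in the controls against 1680.2, 1669.6 and 2018 in YY1aKO, a rise of 1.37 ± 0.13 (limma adjusted p = 0.00937). Eprs rose by 1.16, Gars by 1.10 and Cars by 0.89 (adjusted p = 0.00996, 0.0124 and 0.0161), Cars by 0.55 as the mean of its probe sets. YY1aKO 2 was nearest to the controls in 9 of the 11. The count of 9 fell to 1 without control 3 and to 0 without any YY1aKO array.

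The enzymes of amino acid synthesis and one-carbon metabolism did not move one way. With 6 arrays 0 of 10 measured rose and 2 fell (2 higher and 3 lower at an unadjusted p under 0.05), with a median of 0.60. Phgdh, the first enzyme of serine synthesis, read 5776, 3001 and 5211 in the controls against 2011, 1831.5 and 2070.1 in YY1aKO, a difference of -1.19 ± 0.25 (limma adjusted p = 0.0403), but -0.45 as the mean of its probe sets (adjusted p = 0.726, and 0.00194 without control 2). Gpt2, the mitochondrial alanine transaminase, had -1.35 ± 0.29 (adjusted p = 0.0398), or -1.39 without suffixed probe sets (adjusted p = 0.0562). Without control 2 the same 2 fell and 6 others rose, with a median of 0.67. Among the 6 was Mthfd2, named here after its values were seen. It read 97.3, 821 and 117 in the controls against 853, 630.5 and 1064 in YY1aKO. Its difference was 1.98 with 6 arrays (limma adjusted p = 0.189) and 2.96 ± 0.22 without control 2 (adjusted p = 0.00151).

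Among 9 measured amino acid transporters, Slc38a2, which carries small neutral amino acids, was the 1 that rose (0.74 ± 0.13, limma adjusted p = 0.0251), and 0 fell. These are 11.1% and 0%, against 6.92% and 4.04% of all genes. At an unadjusted p under 0.05, 3 were higher and 0 lower. The list median was -0.04, with 4 differences above 0 and 5 below. Slc38a2 read 994 to 1043 in the controls and 1695, 1456 and 1999 in YY1aKO. Without control 2, 4 rose and 1 fell (44.4% and 11.1%, against 14.6% and 11.5% of all genes), with a median of 0.385.

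Of 17 stress effectors and cell death genes listed as targets of ATF4 or CHOP, 5 rose and 0 fell (7 higher and 0 lower at an unadjusted p under 0.05), with a median of 0.18. Gadd45a, which slows the cell cycle after damage, read 235, 307 and 320.3 in the controls against 1136, 804 and 1308 in YY1aKO, a rise of 1.90 ± 0.22 (limma adjusted p = 0.0109). Cdkn1a, the cyclin kinase inhibitor p21, read 234, 288 and 310.2 against 879, 853 and 938 (1.69 ± 0.13, adjusted p = 0.00658), with YY1aKO 2 close to the others. Ero1a, the oxidase of the endoplasmic reticulum that CHOP induces, rose by 1.33 and Atg12, an autophagy conjugate, by 1.16 (adjusted p = 0.0289 and 0.00879), Atg12 by 0.74 as the mean of its probe sets. The fifth, Fgf21, a secreted hormone and ATF4 target named here after its values were seen, read 28.8, 37.2 and 30.6 in the controls against 96.6, 88.9 and 238 in YY1aKO (1.99 ± 0.39, adjusted p = 0.0322). Without control 2, 6 rose and 2 fell. The count of 5 became 2 without control 3, 1 without YY1aKO 1 and 0 without YY1aKO 2 or 3.

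The chaperones and other genes of the remaining arms of the unfolded protein response, which ATF6 and XBP1 drive, depended on control 2. With 6 arrays 0 of 15 were called (1 higher and 0 lower at an unadjusted p under 0.05), with a median of 0.49. Without control 2, 9 rose and 0 fell, with a median of 0.72. Manf, a secreted chaperone cofactor, read 1163, 6872 and 1433 in the controls against 4220.4, 2443 and 4267 in YY1aKO. Control 2 was thus above every other array, and the difference was 0.65 (limma adjusted p = 0.598) with it and 1.45 ± 0.26 (adjusted p = 0.0126) without it. Dnajb11, a cofactor of the chaperone BiP, had 0.72 ± 0.10 without control 2 (adjusted p = 0.0053) and 0.37 with it (adjusted p = 0.466). YY1aKO 2 was nearest to the controls in 13 of the 15.

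Of 9 mitochondrial chaperones and proteases, 2 rose and 0 fell (2 higher and 1 lower at an unadjusted p under 0.05), with a median of 0.13. Lonp1, a matrix protease, rose by 0.96 ± 0.17 (limma adjusted p = 0.0257), and Dnaja3, a matrix co-chaperone, by 0.81 ± 0.17 (adjusted p = 0.0374), but 0.58 as the mean of its probe sets (adjusted p = 0.051) and 0.06 without suffixed probe sets (adjusted p = 0.727). Among 8 measured of 14 TORC1 components and targets, 0 were called with 6 arrays (1 higher and 1 lower at an unadjusted p under 0.05), with a median of 0.12. Without control 2, 1 rose and 1 fell (12.5% each, against 14.6% and 11.5% of all genes). These were Tsc1, an inhibitor of the pathway, at 0.66 ± 0.08 (limma adjusted p = 0.00443) and Eif4b, a translation initiation factor, at -0.49 ± 0.11 (adjusted p = 0.0246). By the mean of probe sets Tsc1 rose by 0.42 there, and Eif4b passed with 6 arrays too (-0.53, adjusted p = 0.0468). Like the lists above, the calls of Eif2b5, Eif2s2, Atf7, Trib2, Gpt2, Phgdh, Slc38a2, Lonp1 and Dnaja3 with 6 arrays were each lost when control 3 or any YY1aKO array was left out, and those of Trib2, Phgdh and Dnaja3 also when control 1 was.

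**Figure D3:**
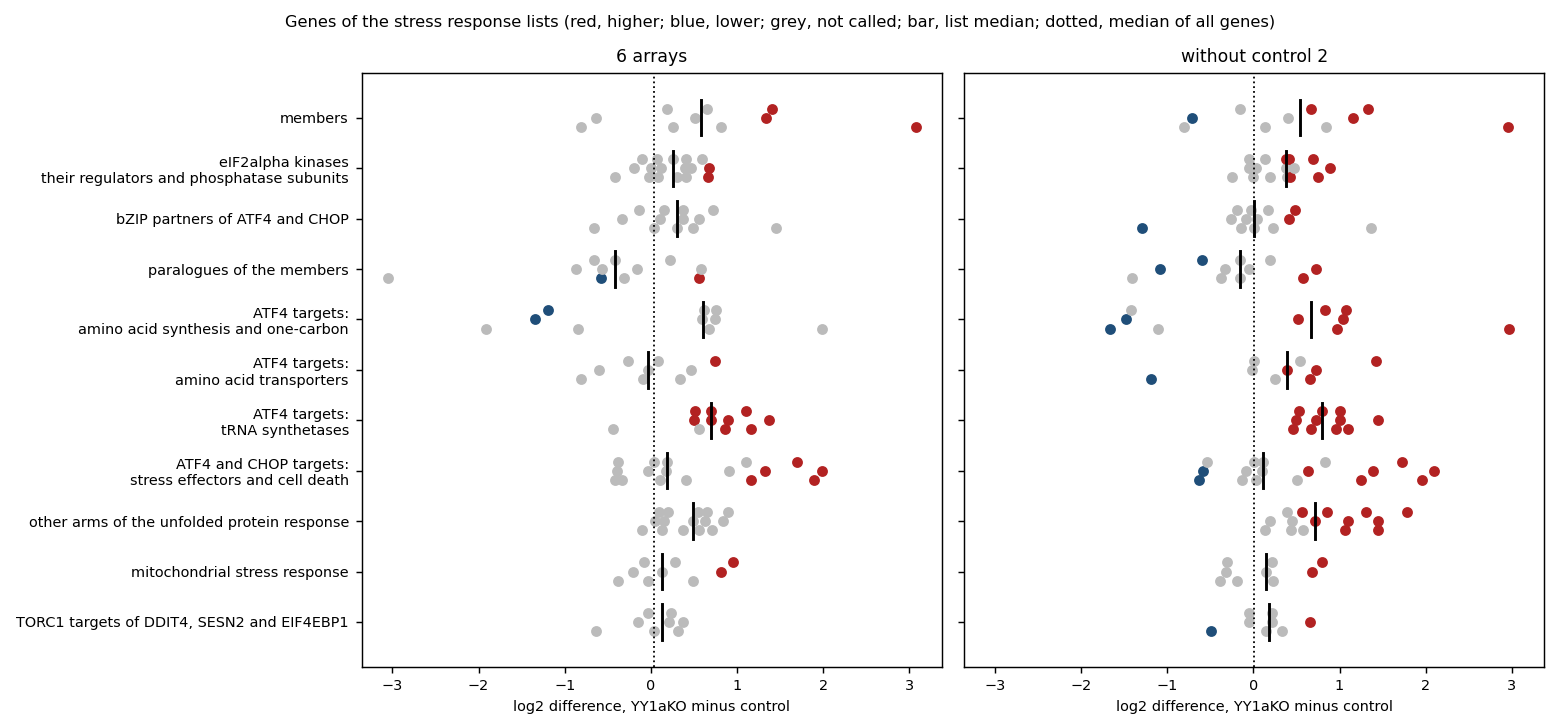
Log2 difference, YY1aKO minus control, of each measured gene of the 10 members and the 10 related lists, with 6 arrays and without control 2. Red genes rose, blue genes fell and grey genes did not pass, black bars are list medians and the dotted line is the median of all genes. The aminoacyl-tRNA synthetases are red in 9 of 11 genes with 6 arrays and in all 11 without control 2, and the remaining unfolded protein response genes turn from 0 to 9 red genes between the panels.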

How the data were processed

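Intensities per probe set, 1 per array, were used as deposited by the authors. The submitters' processing notes name RMA, whose version and settings are not given in the sources used here. RMA makes array distributions alike and can remove a shift common to most genes. The values run from 6.09 to 30322 on a linear scale, whereas RMA usually ends in log2, and no source used here explains the return. Of 22690 probe sets, 64 array controls were left out, and the platform annotation named 1 gene for 20380, several for 691 and none for 1555. All 22626 others were fitted on log2 values with limma 3.58.1 in R 4.3.3 (lmFit, eBayes), with no filter and no covariate, two-sided, with Benjamini-Hochberg adjustment over all of them and a threshold of 0.05. The same fit was made on 5 arrays without control 2. Gene counts use each gene's probe set with the highest mean. Differences are YY1aKO minus control, with SE and n = 3 per group, and the number of arrays limits the precision. The fit was checked on simulated data.

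The members and lists were chosen with earlier results of these data known. Named genes are all members, Yy1, Lcn8 and Gpx5. Per pathway list they are up to 4 called genes of smallest p, or up to 2 called without control 2 where 6 arrays gave none. Fgf21, Mthfd2 and single marker genes are exceptions. Promoter windows came from RefSeq. Alternatives were filters on dim probe sets, other probe set choices, an intensity offset of 32, renormalization, a trend with robust prior, array weights, other thresholds, a replicate block and each array left out. Deviations of same-numbered arrays from their group means correlated at -0.10, -0.08 and -0.10, so no pairing by replicate number was seen. The control means include control 2, so these values cannot exclude a pairing.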

Additional observations from a re-analysis of the deposited data

How the results depend on the processing

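No pairing of the samples by replicate number was seen, and it was not excluded. With the replicate block 0 member probe sets and 0 member genes rose, and 16 of all probe sets were called.

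With 6 arrays the main counts were 4 member probe sets and 3 genes higher, and 0 of either lower. The higher counts were 2 probe sets among the brightest 40%, 1 probe set and 1 gene without suffixed probe sets (Trib3 and Atf5 have no other), 7 and 5 with array weights, and 0 and 0 at an adjusted p under 0.01. Of the 2 among the brightest 40%, 1456225_x_at of Trib3 had a mean log2 intensity of 6.73 in controls and 9.80 in YY1aKO. It passed that filter only through its YY1aKO values, so its call there adds no support. The lower counts were 1 and 1 among the brightest 60%, 1 gene with the mean of probe sets, 3 and 2 with array weights, and 2 and 1 at an adjusted p under 0.10. Leaving out 1 array gave 0 to 6 probe sets and 0 to 4 genes higher, and 0 to 1 of either lower.

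Without control 2 the main counts were 6 probe sets and 4 genes higher and 1 of each lower. The higher counts were 2 and 2 without suffixed probe sets and 1 and 1 at an adjusted p under 0.01. The lower counts were 2 probe sets among the brightest 60%, 0 and 0 among the brightest 40%, 2 probe sets with a trend and robust prior, 0 and 0 at an adjusted p under 0.01, and 3 and 2 at an adjusted p under 0.10. Leaving out a further array gave 3 to 7 probe sets and 3 to 5 genes higher, and 0 to 3 and 0 to 2 lower. Array weights reached no full convergence there.

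No reversed value passed the test. With array weights 1417562_at and 1434976_x_at of Eif4ebp1 were at -0.071 and -0.057 and 1425139_at of Sesn2 at -0.005. Leaving out 1 array gave -0.20 to 0.54 and -0.15 to 0.50 for the Eif4ebp1 probe sets. Without control 2 and a further array, 1417563_at of Eif4ebp1 ran from -0.058 to 0.25 and 1425139_at of Sesn2 from -0.034 to 0.14. Trib3 1456225_x_at was called in 11 of 16 alternatives with 6 arrays and 13 of 14 without control 2, and 1426065_a_at in 10 of 15 and 11 of 14. Atf3 was called in 10 of 16 and 15 of 15, and Atf5 in 10 of 16 and 13 of 14. These tallies include the other thresholds, whose outcome the main adjusted p fixes. Those with 6 arrays also include the fit without control 2. Unless stated, the cause was not tested. Detection calls were not used, so low intensities hold an unknown share of background.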
